A study of Mus musculus with 5 samples.

Results

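Ribosome biogenesis and RNA polymerase I genes were examined in erythroid bone marrow cells of wild-type (WT) mice and of Polg mutant mice, which carry 2 mutant copies of the gene of the polymerase that copies mitochondrial DNA. The set holds 39 genes chosen by name, of the 22180 genes measured: 9 of the polymerase I machinery, 8 proteins of small nucleolar ribonucleoproteins (snoRNPs), 11 factors of the small ribosomal subunit, 7 factors of the large subunit and 4 nucleolar proteins with several roles. A gene was measured where a probe set carried its symbol alone, and the brightest such probe set over all arrays was used, which gave values for 37 members. Fbl, which encodes the methyltransferase of box C/D snoRNPs, and Tsr1, a late small subunit factor, share their probe sets with another symbol and were not analysed here.

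Each sample was hybridised to 1 whole-transcript array, with 2 arrays in the WT group (Polgtm1Lrsn wt/wt) and 3 in the Polg mutant group (Polgtm1Lrsn mt/mt). The mice were on a C57BL/6 background, and the series' design text says that they had been phlebotomized, whereas the labels' treatment field reads none. Both groups came from matings in which each parent was Atg7 flox/flox and PolG wt/mt and the male was also Epo-cre ki/wt, so the floxed Atg7 alleles are shared by all samples, while the sources used here do not give the Cre genotype of each sample, the ages or the bleeding schedule. Cells were depleted of CD45, a leukocyte antigen, and selected for Ter119, an antigen of erythroblasts and red cells, on a magnetic separator. The mutant allele is carried by the whole animal, so cells other than erythroid ones carry it too. No label states that each array is a separate animal, and the p-values then reflect just the spread among these samples, which may be technical.

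Ribosomes are assembled in the nucleolus, where RNA polymerase I, guided by UBTF, the SL1 complex and RRN3, transcribes ribosomal DNA into a long precursor RNA. Box C/D and box H/ACA snoRNPs methylate and pseudouridylate that precursor, and large assemblies of processing factors cut and fold it into the RNAs of the small and large subunits. In erythroid cells this activity is known to be high in early precursors and to decline as they mature, and inherited defects of ribosome production are a known cause of anaemia.

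Most of the measured members were higher in Polg mutant cells, by modest amounts. The difference between groups, Polg mutant minus WT on the log2 scale, was above 0 for 34 members and below 0 for 2, and Taf1c had the same value on all 5 arrays. The median difference was 0.33 (from -0.54 for Ubtf to 0.67 for Nop58), against 0.00 over all genes tested. For 25 members, 67.6% of those measured, all 3 Polg mutant arrays lay above both WT arrays. This held for 8.36% of all genes tested. Among the 8340 genes that exceed a log2 of 6 on 2 or more arrays it held for 16.7%, and among 137 other ribosome biogenesis genes for 33.6%. The members were chosen with earlier results of these data known, so these shares do not test the set. Ubtf was the 1 member with every Polg mutant array below both WT arrays, against 9.73% of all genes tested and 20.3% of those above a log2 of 6. At an unadjusted p under 0.05 with limma, 18 members were higher and 1 lower, beside 4.18% and 5.33% of all genes, or 9.47% and 12.5% of genes above a log2 of 6. With Benjamini-Hochberg adjustment 0 of the 22180 genes passed a threshold of 0.05 (0.0% in either direction), and the smallest adjusted p among members was 0.200, for Polr1a. The count at an unadjusted p under 0.05 was 9 higher without WT replicate 1, 6 without WT replicate 2, 12 without Polg mutant replicate 1 and 9 without Polg mutant replicate 2.

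**Figure D1:**
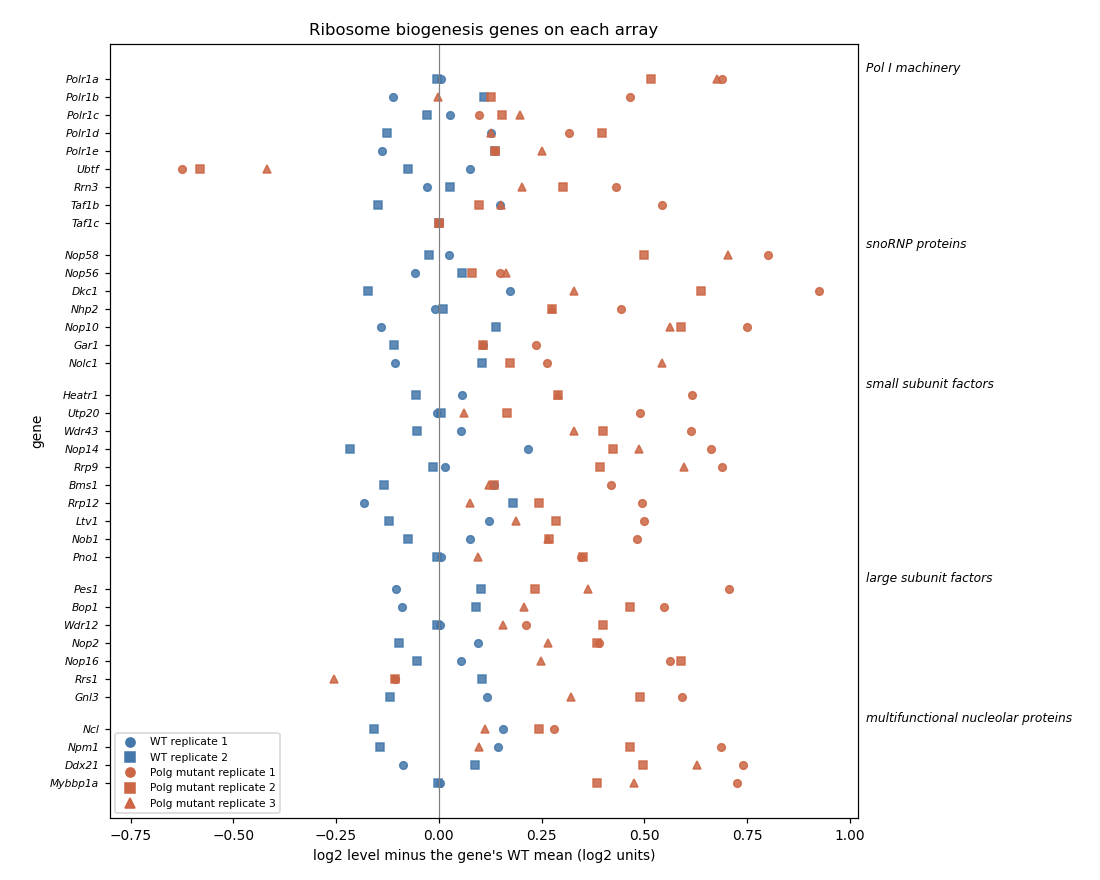
Level of each of the 37 measured genes on each array, as log2 level minus that gene's WT mean (x axis, log2 units), with genes in rows by role, WT in blue and Polg mutant in orange, and the marker shape giving the replicate. In 25 rows the 3 orange points lie to the right of both blue points, and in the Ubtf row they lie to the left.

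Exact ties between arrays limit these tests. Of the members, 7 had the same value on at least 2 arrays, as did 67.9% of all genes. A gene tied between a WT and a Polg mutant array cannot be separated, so ties can lower the shares over all genes. Of the 30 untied members 24 were above on every Polg mutant array, and the share over all untied genes is not given here. By chance 20% of untied genes would be separated, both directions together. Limma's prior SD was 0.0376 over all genes against 0.170 over genes with 5 distinct values. In a fit to the 4322 genes that have 5 distinct values and exceed a log2 of 6 on 2 or more arrays, a choice made after such ties had been seen, Polr1a, Nop58, Nop10, Rrp9 and Ddx21 passed as higher (limma adjusted p from 0.0299 to 0.0449) and Ubtf as lower (0.0430). In that fit 5.71% of genes passed as higher and 5.55% as lower, and 30 members entered it. In a fit to all 7112 untied genes 0 members passed, beside 1.03% of genes as higher and 0.576% as lower, and in a fit to the 8340 genes above a log2 of 6, ties included, 0 members passed, beside 0.0719% and 0.06%. A filter on ties is not independent of the differences tested.

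Markers of erythroid stages and of other marrow cells were read on the same arrays. Of the 16 erythroid markers measured, which include the anion exchanger gene Slc4a1 and the transcription factor genes Gata1 and Klf1, 15 were lower on every Polg mutant array, with list means of 12.04 and 11.89 on the WT arrays and 11.65 to 11.73 on the Polg mutant arrays. All 17 measured G2/M and mitosis genes were lower on every Polg mutant array, with a median difference of -0.46. On every Polg mutant array 9.73% of all genes tested were lower than both WT arrays and 8.36% higher. Of genes above a log2 of 6, 20.3% were lower and 16.7% higher. Among 12 genes listed as early erythroid progenitor markers, 4 were higher on every Polg mutant array. These were Podxl by 3.67, Cbfa2t3 by 1.29, Hspa9 by 1.11 and Gata2 by 0.50. On every such array 2 were lower, namely Lmo2 at -0.28 and Tfrc at -0.39. Hspa9 encodes a mitochondrial chaperone and is not specific to progenitors, and Tfrc is also on the erythroid list. The mean of the progenitor list was 8.27 and 8.17 in WT against 8.64 to 8.89 in the Polg mutant. Its median difference was only 0.09 (0.02 to 0.23 when 1 array was left out). Kit, the stem cell factor receptor gene that defines early progenitors, differed by 0.17 without separation of the groups (limma adjusted p = 0.638). The part of these differences in the ribosome biogenesis values was not tested, and in such bulk samples fewer cells of a type and less RNA per cell cannot be told apart.

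Neutrophil markers, 16 genes that include Elane and Mpo, had mean levels of 8.19 and 7.05 on the WT arrays against 8.49, 8.89 and 7.38 on the Polg mutant arrays. Of these markers 13 of 16 differed upwards, with a median of 0.63 that ran from 0.122 to 1.003 when 1 array was left out, and 1 of 16, Chil3, at 1.73, was above on every Polg mutant array. Polg mutant replicate 3 had 27 of 37 members above both WT arrays, beside 27.8% of all genes. It was the lowest Polg mutant array for 21 members. The mean over the members was 7.39 and 7.35 on the WT arrays against 7.81, 7.65 and 7.61 on the Polg mutant arrays. Elane read 11.61 and 10.55 in WT against 11.75, 11.35 and 10.89 in the Polg mutant. Mpo read 11.58 and 10.54 in WT against 11.64, 11.19 and 10.64 in the Polg mutant. Within each group these 2 genes ranked the arrays as the members' mean did, whereas the neutrophil list mean was highest on Polg mutant replicate 2. The part of neutrophil RNA in the members' differences was not tested. Markers of macrophages ranged in mean from 5.41 to 5.66, of T and NK cells from 4.80 to 5.04, of B cells from 5.01 to 5.80 and of megakaryocytes from 6.16 to 7.02. The B cell list was highest on WT replicate 1 and the megakaryocyte list on WT replicate 2.

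**Figure D2:**
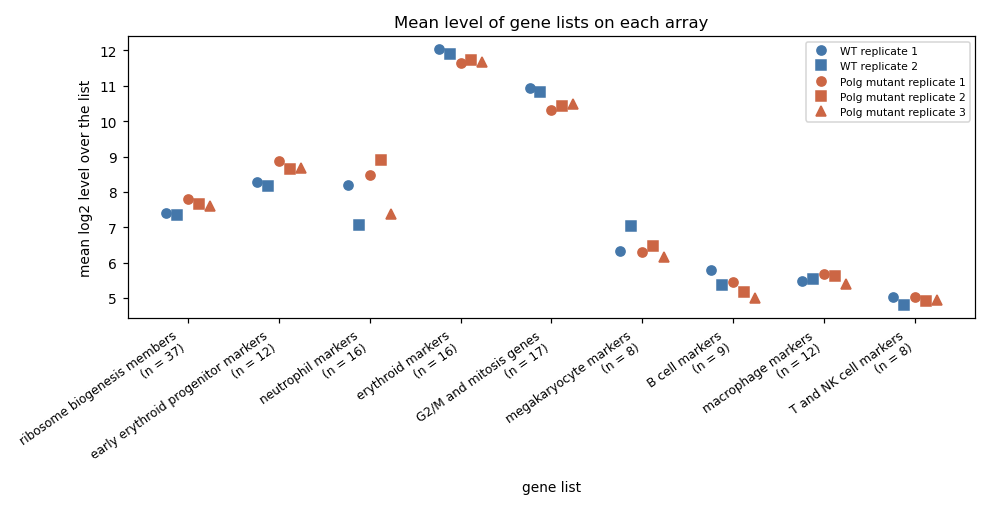
Mean log2 level (y axis) of the measured members and of 8 check lists on each array, with WT in blue, Polg mutant in orange and the marker shape giving the replicate. The list means of the ribosome biogenesis members and of the early progenitor list are higher on all 3 Polg mutant arrays. Of the 12 genes on the progenitor list, only 4 are above singly and 2 are below. The means of erythroid and mitosis genes are lower on these arrays, and those of neutrophil markers vary within both groups.

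Start-site sequences were available for 34 members, in RefSeq windows from 250 bases before to 50 bases after each start (build GRCm38.p6). The E-box CACGTG, the letters bound by MYC and MAX and the same on both strands, was found in the windows of 9 of these 34 genes (26.5%), against 8.09% of all 27025 genes with a window. Of 118 other ribosome biogenesis genes with a window, 20 (16.9%) held it. An ETS site, CCGGAAG on either strand, was found for 13 members (38.2%) and 50 of those other genes (42.4%), against 9.93% of all genes. TTGCATC on either strand, a core of the element bound by ATF4, was found for 0 members, against 2.89% of all genes. Genes with several annotated starts, such as Ubtf with 6 windows and no E-box, had more sequence searched. The stretches of 30 bases around the E-boxes of the 8 measured members that hold one are shown because all 8 were higher on every Polg mutant array. This choice was made by outcome, among members chosen with earlier results known, and tests no link between the motif and the differences. The stretches are written in the direction of the gene with the E-box in capitals.
Rrn3, chr16:13780472-13780501, plus strand: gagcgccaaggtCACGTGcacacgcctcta
Rrn3, chr16:13780639-13780668, plus strand: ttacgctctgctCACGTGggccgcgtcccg
Nop2, chr6:125131811-125131840, plus strand: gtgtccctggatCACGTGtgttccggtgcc
Pes1, chr11:3963965-3963994, plus strand: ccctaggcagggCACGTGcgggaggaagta
Wdr43, chr17:71616220-71616249, plus strand: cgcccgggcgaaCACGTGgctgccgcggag
Ltv1, chr10:13193092-13193121, minus strand: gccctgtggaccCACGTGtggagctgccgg
Utp20, chr10:88826765-88826794, minus strand: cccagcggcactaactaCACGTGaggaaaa
Pno1, chr11:17211540-17211569, minus strand: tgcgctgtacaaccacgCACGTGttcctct
Mybbp1a, chr11:72441347-72441376, plus strand: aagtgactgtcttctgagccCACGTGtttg

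In Rrn3 the E-boxes began 215 and 48 bases before the start, and in Nop2 60 bases before it. In the other 6 genes the E-box lay after the start, its first base falling at position 3 in Pes1, 18 in Wdr43, 29 in Ltv1, 38 in Utp20 and Pno1 and 41 in Mybbp1a, counted from the start base as 1. The differences of these 8 genes ran from 0.24 (Utp20) to 0.53 (Mybbp1a) with a median of 0.34, and the median of the 25 measured members whose windows lacked an E-box was 0.33, with 16 of the 25 above on every Polg mutant array. Over all measured genes with a window, 12.7% of the 1561 with an E-box and 8.05% of the 15429 without one were above on every Polg mutant array, and 11.3% and 10.1% were below. The median difference of the 12 members with an ETS site was 0.29 and of the 21 without one 0.45. On every Polg mutant array 7 (58.3%) of the former and 17 (81.0%) of the latter were above. A match of letters shows neither binding nor its absence. The 250 bases before the start of Rrn3, the member with an E-box at a pair of places, are printed whole, with both in capitals.
Rrn3, chr16:13780449-13780698, plus strand: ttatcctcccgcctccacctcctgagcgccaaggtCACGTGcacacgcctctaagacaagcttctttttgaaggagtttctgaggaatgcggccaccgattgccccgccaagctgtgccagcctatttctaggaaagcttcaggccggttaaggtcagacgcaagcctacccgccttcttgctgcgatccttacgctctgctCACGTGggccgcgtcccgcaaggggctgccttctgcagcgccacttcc

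Of the 9 genes of the polymerase I machinery 7 differed upwards and 1, Ubtf, downwards, with a median difference of 0.20. On every Polg mutant array 3 (33.3%) were above and 1 (11.1%) below both WT arrays. These shares were 8.36% and 9.73% over all genes tested, and 16.7% and 20.3% over genes above a log2 of 6. Polr1a encodes the largest, catalytic subunit of the polymerase, and its log2 level was 7.03 and 7.02 on the WT arrays against 7.71, 7.54 and 7.70 on the Polg mutant arrays. The groups did not overlap, and the spread within each was small against the gap: the difference was 0.63 ± 0.07 (SE; 2 WT and 3 Polg mutant arrays), a 1.54-fold higher level, with limma adjusted p = 0.200. Ubtf encodes the upstream binding factor that coats active ribosomal DNA and recruits the polymerase. It read 10.23 and 10.08 in WT against 9.53, 9.57 and 9.73 in the Polg mutant. It was thus the member that went the other way, by -0.54 ± 0.09, 1.45-fold lower (limma adjusted p = 0.252).

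Rrn3 encodes the factor that makes the polymerase competent to initiate and is a target of growth signalling. Its values were 7.39 and 7.44 in WT against 7.85, 7.72 and 7.62 in the Polg mutant, a difference of 0.31 ± 0.08 without overlap (limma adjusted p = 0.374). For Polr1c, a subunit shared with polymerase III, they were 7.84 and 7.78 in WT against 7.91, 7.96 and 8.01 in the Polg mutant. All 3 Polg mutant arrays were higher here too, but the difference was only 0.15 ± 0.04 (limma adjusted p = 0.407). Polr1b, the second-largest subunit, read 6.83 and 7.05 in WT against 7.41, 7.07 and 6.94 in the Polg mutant, so its groups overlapped (0.20 ± 0.18, limma adjusted p = 0.693). Polr1d, also shared with polymerase III, differed by 0.28 and Polr1e by 0.18, each with a Polg mutant array tied to a WT array. Without WT replicate 2 the value of Polr1d was 0.15, and without WT replicate 1 that of Polr1e was 0.04. Taf1b, an SL1 subunit that contacts the polymerase, differed by 0.26 with overlapping groups, and Taf1c, another SL1 subunit, read 6.92 on every array. Polr1b differed by 0.06 without Polg mutant replicate 1 and 0.31 without WT replicate 2, and Taf1b by 0.41 without WT replicate 1 and 0.12 without WT replicate 2.

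The opposite directions of Polr1a and Ubtf were compared within arrays. Polr1a minus Ubtf was -3.20 and -3.06 on the WT arrays against -1.82, -2.03 and -2.04 on the Polg mutant arrays, a shift of 1.17. An exact two-sided permutation test gave p = 0.1, the smallest that 10 splits of 5 arrays into 2 and 3 allow. Since Polr1a was above and Ubtf below on every Polg mutant array, their difference had to separate the groups. This p therefore adds nothing to the values of each gene. Polr1a minus Polr1b was 0.20 and -0.04 in WT against 0.30, 0.47 and 0.76 in the Polg mutant (exact permutation p = 0.2). These pairs, and the pair of snoRNP genes below, were chosen after their values were seen, and the adjusted p over the 3 pairs was 0.15, 0.2 and 0.15 by the same exact permutation test.

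Other genes of polymerase I transcription did not share the direction of Polr1a as a list. Of 13 measured, 6 differed upwards and 7 downwards, and the median difference was 0.00. On every Polg mutant array 2 (15.4%) were above and 1 (7.69%) below. These shares were 8.36% and 9.73% over all genes tested, and 16.7% and 20.3% over genes above a log2 of 6. Tcof1, which encodes treacle, a nucleolar partner of UBTF and the polymerase, read 7.19 and 7.16 in WT against 7.58, 7.41 and 7.43 in the Polg mutant, 0.30 ± 0.06 higher (limma adjusted p = 0.303). Baz2a, which encodes a subunit of the complex that silences ribosomal DNA, read 9.71 and 9.50 in WT against 9.11, 9.08 and 9.15 in the Polg mutant. It was lower by -0.49 ± 0.07 without overlap (limma adjusted p = 0.238). Polr2f, a subunit common to the nuclear polymerases, differed by 0.14 (limma adjusted p = 0.510) and Tbp, the TATA-binding subunit of SL1, by -0.22 (limma adjusted p = 0.638). Polr1f, a stalk subunit, and Polr1g, an associated subunit, are listed on the array under the older symbols Twistnb and Cd3eap, and differed by 0.13 and -0.09.

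**Figure D3:**
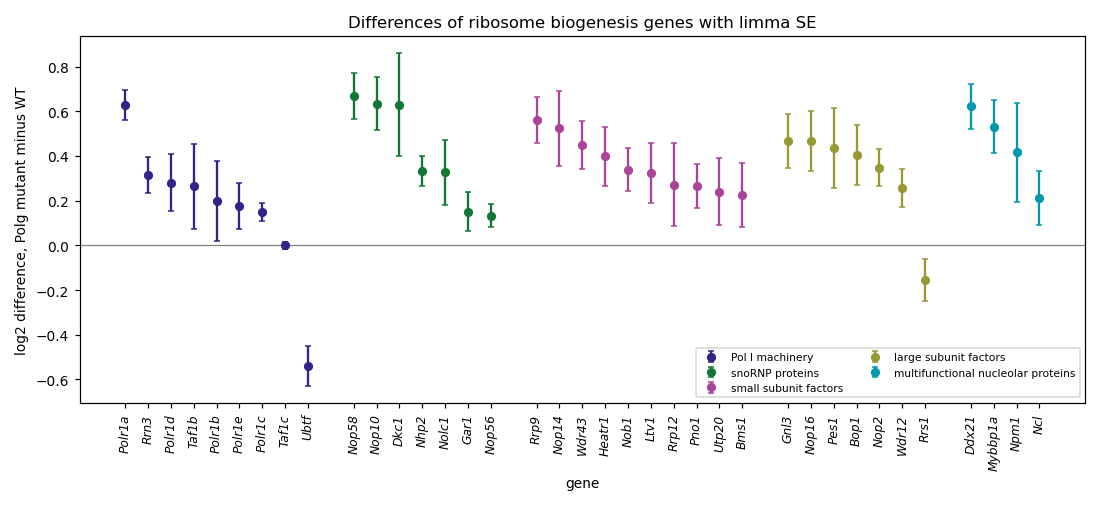
Log2 difference between groups, Polg mutant minus WT (y axis), for each measured gene (x axis), coloured by role and ordered by size within it, with bars giving the SE from limma. Values run from -0.54 for Ubtf to 0.67 for Nop58, and 34 of the 37 lie above 0.

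SnoRNP proteins were higher as a list. All 7 measured genes differed upwards and 6 (85.7%) were above on every Polg mutant array, with a median difference of 0.33. The share above was 8.36% over all genes tested and 16.7% over genes above a log2 of 6. Nop58, a core scaffold protein of box C/D snoRNPs, read 7.50 and 7.45 in WT against 8.28, 7.98 and 8.18 in the Polg mutant. This was the largest difference among the members, 0.67 ± 0.11 or 1.59-fold (limma adjusted p = 0.241). Nop56, its partner and paralogue in the same particle, read 9.30 and 9.42 in WT against 9.51, 9.44 and 9.52 in the Polg mutant. Its groups were separated by 0.02 and differed by 0.13 ± 0.05 (limma adjusted p = 0.600), with 0.075 without WT replicate 1. Nop58 minus Nop56 within arrays was -1.80 and -1.97 in WT against -1.23, -1.46 and -1.35 in the Polg mutant, a shift of 0.54 (exact permutation p = 0.1, again the smallest possible).

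The box H/ACA proteins form the pseudouridylation enzyme and also hold telomerase RNA. Nop10, a small core protein of that particle, read 7.81 and 8.09 in WT against 8.70, 8.54 and 8.51 in the Polg mutant, 0.63 ± 0.12 higher (limma adjusted p = 0.268). Nhp2, another core protein, read 7.39 and 7.41 in WT against 7.85, 7.68 and 7.68 in the Polg mutant (0.33 ± 0.07, limma adjusted p = 0.287). Dkc1 encodes dyskerin, the pseudouridine synthase itself. Its levels were 8.64 and 8.29 in WT against 9.39, 9.10 and 8.79 in the Polg mutant. The difference was as large as that of Nop10, at 0.63, but the spread within groups was wider (SE 0.23, limma adjusted p = 0.562). Gar1, the fourth protein of the particle, differed by 0.15, with 2 Polg mutant arrays tied to WT replicate 1, and by 0.04 without WT replicate 2. Nolc1, a chaperone of snoRNPs in the nucleolus, differed by 0.33 without overlap (limma adjusted p = 0.638).

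Of 10 other snoRNP genes, 3 were above and 0 below on every Polg mutant array, with a median difference of 0.14. Snu13, which binds the kink-turn of box C/D RNAs, differed by 0.41 ± 0.12 (limma adjusted p = 0.438). Ruvbl2, an ATPase of snoRNP assembly, differed by 0.29 ± 0.08 (limma adjusted p = 0.428). Znhit3, an assembly factor, was the 1 gene of this list with a value below 0, at -0.09 (limma adjusted p = 0.754).

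Small subunit factors were higher in all 10 genes measured, 8 of them without overlap between groups, and 5 had an unadjusted p under 0.05. The median difference was 0.33. These proteins build the processome on the early precursor RNA or mature the small subunit afterwards. Rrp9, a protein of the U3 snoRNP, read 6.57 and 6.54 in WT against 7.25, 6.95 and 7.15 in the Polg mutant. It had the largest difference of the list, 0.56 ± 0.10 or 1.47-fold (limma adjusted p = 0.268). Wdr43, a processome protein that acts with polymerase I transcription, read 7.68 and 7.57 in WT against 8.24, 8.02 and 7.95 in the Polg mutant (0.45 ± 0.11, limma adjusted p = 0.338).

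Nop14, another processome protein, read 6.65 and 6.22 in WT against 7.10, 6.86 and 6.92 in the Polg mutant. Its WT arrays were far apart, and the difference of 0.52 ± 0.17 (limma adjusted p = 0.477) was 0.31 without WT replicate 2. Nob1, the endonuclease that makes the final cut of small subunit RNA, read 7.51 and 7.36 in WT against 7.92, 7.70 and 7.70 in the Polg mutant (0.34 ± 0.10, limma adjusted p = 0.429). Its partner Pno1 differed by 0.27 without overlap (limma adjusted p = 0.579). Heatr1, which is needed for polymerase I transcription and early processing, differed by 0.40 (limma adjusted p = 0.497). The other members of this list, Ltv1, Rrp12, Utp20 and Bms1, differed by 0.32, 0.27, 0.24 and 0.23, with overlap between groups for Rrp12 and Bms1. Leaving out 1 array gave as little as 0.20 for Ltv1 and 0.09 for Bms1 (both without WT replicate 2), 0.09 for Rrp12 (without WT replicate 1) and 0.11 for Utp20 (without Polg mutant replicate 1).

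Of 41 other small subunit genes measured, 16 (39.0%) were above and 0 below on every Polg mutant array, with a median difference of 0.12. At an unadjusted p under 0.05, 9 (22.0%) were higher and 0 lower. Over genes above a log2 of 6, 16.7% were above and 20.3% below, and 9.47% were higher and 12.5% lower at such a p. Utp4, a processome protein, read 7.93 and 7.77 in WT against 9.08, 8.51 and 8.69 in the Polg mutant, a difference of 0.91 ± 0.20 (limma adjusted p = 0.317) that exceeded that of every member. Riok2, a kinase of late small subunit maturation, read 6.46 and 6.32 in WT against 7.21, 6.82 and 6.995 in the Polg mutant (0.62 ± 0.14, limma adjusted p = 0.326). The genes of smallest p with a value below 0 were the helicase gene Ddx47, at -0.13 (limma adjusted p = 0.638), and Bysl, at -0.07 (limma adjusted p = 0.675).

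Large subunit factors had a median difference of 0.41 over 7 genes, with 6 (85.7%) above on all 3 Polg mutant arrays. At an unadjusted p under 0.05, 5 (71.4%) were higher. Over genes above a log2 of 6 these shares were 16.7% and 9.47%. Pes1, Bop1 and Wdr12 form the PeBoW complex, which is needed to process large subunit RNA. Bop1 read 7.24 and 7.42 in WT against 7.88, 7.80 and 7.54 in the Polg mutant (0.41 ± 0.13, limma adjusted p = 0.493). Pes1 read 7.20 and 7.41 in WT against 8.01, 7.54 and 7.67 in the Polg mutant (0.44 ± 0.18, limma adjusted p = 0.638). Wdr12 read 5.88 and 5.87 in WT against 6.09, 6.27 and 6.03 in the Polg mutant (0.26 ± 0.09, limma adjusted p = 0.507). For all 3 proteins of this complex the groups were separated, with adjusted p from 0.493 to 0.638.

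Nop2, a methyltransferase of large subunit RNA, read 7.81 and 7.62 in WT against 8.11, 8.10 and 7.98 in the Polg mutant (0.35 ± 0.08, limma adjusted p = 0.334). Gnl3 encodes nucleostemin, a nucleolar GTPase of proliferating cells, and read 7.87 and 7.63 in WT against 8.34, 8.24 and 8.07 in the Polg mutant (0.47 ± 0.12, limma adjusted p = 0.377). Nop16, a nucleolar protein of early large subunit particles, read 6.38 and 6.27 in WT against 6.89, 6.92 and 6.57 in the Polg mutant (0.47 ± 0.13, limma adjusted p = 0.420). These 3 genes were higher on every Polg mutant array. Rrs1, which helps bring the 5S particle into the large subunit, was the exception at -0.16 ± 0.09 (limma adjusted p = 0.638), with Polg mutant arrays tied to WT replicate 1 and a value of -0.05 without WT replicate 2. A dimmer probe set of Rrs1 gave 0.15, so its probe sets differ in direction.

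Among 46 other large subunit genes measured, 21 (45.7%) were above and 1 (2.17%) below on every Polg mutant array, with a median of 0.13. At an unadjusted p under 0.05, 12 (26.1%) were higher and 0 lower, beside 9.47% and 12.5% of genes above a log2 of 6. Of those brighter genes 16.7% were above and 20.3% below on every Polg mutant array. Tex10, a partner of PELP1 and LAS1L in large subunit maturation, differed by 0.22 ± 0.03 (limma adjusted p = 0.218). Nmd3, the export adaptor of the large subunit, read 7.20 and 7.05 in WT against 7.65, 7.50 and 7.60 in the Polg mutant (0.46 ± 0.08, limma adjusted p = 0.249). Nvl, an ATPase of large subunit assembly, was the 1 gene of the list below on every Polg mutant array, at -0.13 ± 0.05 (limma adjusted p = 0.538), and Urb2 differed by -0.12 (limma adjusted p = 0.638). Another list held 13 measured genes of exosome subunits, cofactors and exonucleases, which trim ribosomal RNA. Of these 3 (23.1%) were above and 1 (7.69%) below on every Polg mutant array, with a median of 0.00. Over genes above a log2 of 6 these shares were 16.7% and 20.3%. The exosome subunit gene Exosc1 differed by 0.55 ± 0.08 (limma adjusted p = 0.238) and Exosc5 by 0.29 (limma adjusted p = 0.457), while the exonuclease gene Eri1 differed by -0.38 (limma adjusted p = 0.437) and the exosome subunit gene Exosc8 by -0.18 (limma adjusted p = 0.638).

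**Figure D4:**
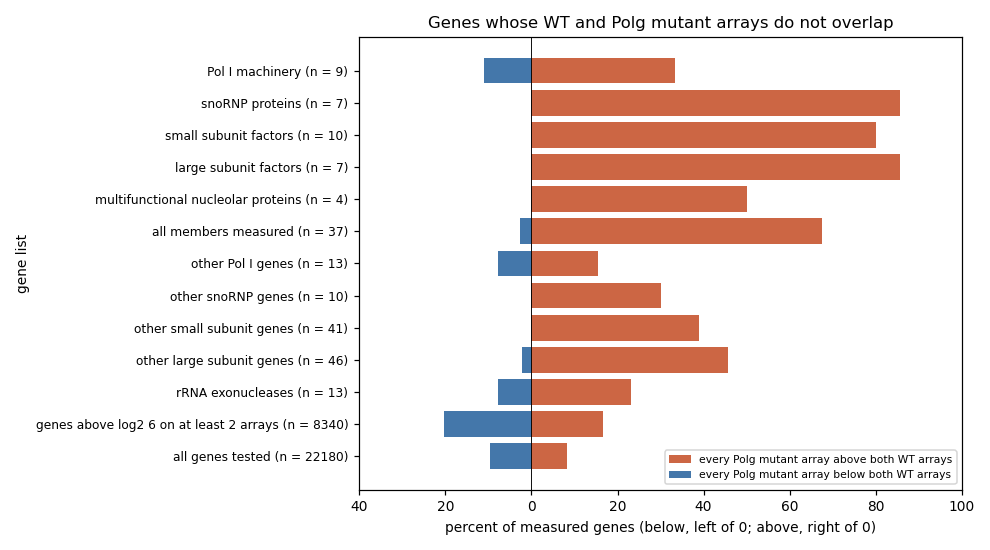
Percent of measured genes (x axis) whose Polg mutant arrays all lay above (orange, right of 0) or all below (blue, left of 0) both WT arrays, for the member lists by role, the other ribosome biogenesis lists, genes above a log2 of 6 and all genes tested (rows). The 37 measured members reach 67.6% above and all genes tested 8.36%.

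The abundant nucleolar proteins with several roles all differed upwards, by 0.21 to 0.62 over 4 genes with a median of 0.47, and 2 were above on every Polg mutant array. Ddx21, an RNA helicase of polymerase I transcription and processing, read 8.17 and 8.34 in WT against 8.99, 8.75 and 8.88 in the Polg mutant, 0.62 ± 0.10 higher or 1.54-fold (limma adjusted p = 0.249). Mybbp1a, a nucleolar protein that binds the MYB and p53 factors, read 7.90 on both WT arrays against 8.63, 8.29 and 8.38 in the Polg mutant (0.53 ± 0.12, limma adjusted p = 0.319). The groups were separated for both genes. Npm1 encodes nucleophosmin, a chaperone that forms the outer phase of the nucleolus, and read 9.79 and 9.50 in WT against 10.33, 10.11 and 9.75 in the Polg mutant. Polg mutant replicate 3 lay below WT replicate 1, and the difference was 0.42 ± 0.22 (limma adjusted p = 0.638). Ncl encodes nucleolin, which binds the precursor RNA, and read 9.21 and 8.90 in WT against 9.34, 9.30 and 9.17 in the Polg mutant (0.21 ± 0.12, limma adjusted p = 0.638). Its groups overlapped in the same way. Without WT replicate 2 the difference was 0.06 for Ncl and 0.27 for Npm1.

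Regulators of ribosome output were read beside these genes. Myc, the transcription factor that drives many nucleolar genes, read 8.01 and 7.83 in WT against 9.18, 8.57 and 8.73 in the Polg mutant, 0.91 ± 0.22 higher without overlap, a 1.88-fold difference (limma adjusted p = 0.341). Rb1, which restrains UBTF and the cell cycle, differed by -0.14 ± 0.04 (limma adjusted p = 0.378), and Mtor, the growth-signalling kinase gene, by -0.12 (limma adjusted p = 0.638). Of the 14 regulators measured, Myc was the only one above on every Polg mutant array (7.14%), and 2 (14.3%) were below. The shares over all genes tested were 8.36% and 9.73%, and over genes above a log2 of 6 they were 16.7% and 20.3%. The partner and antagonist genes Max, Mxd1, Mxi1 and Mxd4 differed by -0.02, -0.04, -0.10 and -0.01.

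Over all 137 other pathway genes measured, 46 (33.6%) were above and 5 (3.65%) below on every Polg mutant array. At an unadjusted p under 0.05, 29 (21.2%) were higher and 3 (2.19%) lower. Over genes above a log2 of 6, 16.7% were above and 20.3% below, and 9.47% were higher and 12.5% lower at such a p. The median difference of the 137 genes was 0.11, against 0.33 for the 37 members.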

How the data were processed

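The deposited table holds log2 expression values for 41345 probe sets on 5 arrays, 1 column per array, and was used with no further scaling. The submitters' processing notes name RMA and Partek 6.5 without saying what each did. The scale was taken as log2 because values ran from 1.43 to 14.07. Array medians lay between 5.10 and 5.13. Signal over background was not known, so a low level is not shown to be above background. In the platform's annotation 23521 probe sets had 1 symbol, 1814 had several and 16010 had none. The brightest single-symbol probe set was kept for each gene, with no filter on low values.

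The comparison used limma 3.58.1 and R 4.3.3 (lmFit and eBayes without trend, genotype as the single term, two-sided, Benjamini-Hochberg over all 22180 genes). The code was tested on simulated data that held no ties between arrays, so that test does not cover tied genes. Levels of different genes are not compared, since probe sets differ in brightness. Values on every array are given for up to 4 members of each role with the smallest p and for 13 members fixed by name, except Fbl, which was not measured. The lists of other ribosome biogenesis genes and regulators name up to 2 genes in each direction. Polr1f, Polr1g, Max, Mxd1, Mxi1 and Mxd4 are named besides. The members and lists were chosen with earlier results of these data known. Motifs were searched in RefSeq start windows on both strands.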

Additional observations from a re-analysis of the deposited data

How the results depend on the processing

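The 36 members with a difference other than 0 kept its sign under each alternative in which they were fitted. Taf1c, at 0.00, was -0.005 after median centring and -0.043 after quantile normalization. For Rrs1 the sign means little in the mean of all probe sets, since its probe sets differed by -0.16 and 0.15. For 14 of the 36, leaving out 1 array moved the difference by over 1.5 times. The members' median difference ran from 0.28 to 0.37 when 1 array was left out and was 0.29 after renewed quantile normalization. Over all genes, limma passed 4 as higher and 1 as lower without moderation, 10 and 2 after quantile normalization, 6 and 5 above a log2 of 6, 73 and 41 among untied genes and 247 and 240 among untied genes above a log2 of 6, against 0 and 0, where 2110 had an unadjusted p under 0.05. Leaving out 1 array gave 0 to 713 higher and 0 to 1068 lower genes, the highest without WT replicate 1, with 511 and 413 without WT replicate 2, where the spread of the single WT array left is taken from the Polg mutant arrays. No member passed in these fits, apart from 6 when genes were both untied and brighter, a choice made after seeing the data. Members at an unadjusted p under 0.05 were 6 to 17 higher when 1 array was left out, against 18, and 12 without moderation. Members below on every Polg mutant array were 2 after quantile normalization and 1 or 2 when 1 array was left out. The replicate numbers are shared by the groups but nothing in the labels pairs them: deviations of same-numbered arrays correlated at 0.19 and -0.20 across genes. With the replicate number as a block 13 members were higher and 1 lower at an unadjusted p under 0.05, with a median of 0.37. Only the Polg mutant group has a replicate 3, so that array does not enter the blocked difference. The median was also 0.37 without Polg mutant replicate 3. The cause of these shifts was not tested. Precision is limited by how few arrays there are.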

Other observations

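Polg mutant replicate 1 was the highest of the 5 arrays for 26 of the 37 measured members, while replicates 2 and 3 were the highest for 4 each. It had 33 members above both WT arrays, replicate 2 had 30 and replicate 3 had 27, where 23.6%, 21.7% and 27.8% of all genes lay above both WT arrays. Replicate 3 was the lowest Polg mutant array for 21 members. Myc was also highest on replicate 1. Within WT, replicate 1 was above replicate 2 for 23 members and below it for 13.

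Of the 5 members with more than 1 probe set of their own, Nop56 had differences of 0.13, 0.19 and 0.04 over its probe sets, Bms1 of 0.23 and 0.23, Npm1 of 0.42 and 0.36, Ddx21 of 0.62 and 0.27, and Rrs1 of -0.16 and 0.15. The order is from the brightest to the dimmest probe set, and Rrs1 was the only member of these whose probe sets differed in direction.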
